A study of Mus musculus with 12 samples.

Results

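The 10 genes described here encode hepatokines, the hormones that the liver secretes into blood, of a kind whose release is known to respond to exercise or fasting. They are Inhba, Inhbe, Fst, Fgf21, Gdf15, Tsku, Lect2, Ahsg, Fetub and Rbp4, taken by gene symbol as 10 of the 17432 genes in the deposited table of liver RNA. Livers came from male wild-type (WT) C57BL/6J mice of 8 to 10 weeks, with 6 mice in the Sedentary group and 6 in the Exercise group. Both groups had 3 days of daytime feeding and treadmill acclimation, after which the Exercise group ran once for 3 hours at 14 m/min in the postprandial state, and the comparison asks what that bout did to the liver transcriptome. Whole liver was sequenced, so fewer cells of a type and less RNA per cell cannot be told apart.

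Hepatokines carry signals from the liver to muscle, fat, brain and the liver itself. Activins are dimers of inhibin beta subunits that signal through SMAD proteins, and follistatin, the product of Fst, binds them and keeps them from their receptors. FGF21 acts on target cells through an FGF receptor together with its co-receptor beta-Klotho, and GDF15 acts through a receptor in the hindbrain that lowers food intake. Fetuin-A, fetuin-B and retinol binding protein 4 are abundant plasma proteins that hepatocytes make at all times.

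Each library held 18745379 to 19324461 estimated counts, and levels are given in CPM, the counts divided by a library size that the TMM method (trimmed mean of M values) adjusts. The quasi-likelihood test of edgeR compared the groups over 12344 genes, Benjamini-Hochberg adjusted, at a threshold of 0.05, and the adjusted p values called edgeR's come from it. The liver label fitted the markers, since all 10 hepatocyte markers were detected and their summed level lay between 134800 and 179400 CPM in Sedentary and between 166600 and 188400 CPM in Exercise livers. Of those 10 markers 3 were higher after exercise and none lower, 30% against 42.4% of all genes tested (2 higher without Exercise replicate 1). None of 8 Kupffer cell markers was called (1 higher without Exercise replicate 1). The cardiac muscle genes Myh6 and Myh7 stood at 4.29 to 10.6 and 2.47 to 5.06 CPM in Sedentary livers and at 0 in the Exercise livers except Exercise replicate 1, which held 5.8 and 1.7 CPM. Of the 6 muscle markers 3 were tested and all 3 fell, but these 3 passed the low-count filter through the Sedentary livers, so that count is a description only. The muscle list summed to 9.63 to 19.7 CPM in Sedentary and 0 to 9.79 CPM in Exercise livers. Its part in the results below was not tested. Because Exercise replicate 1 stood apart from its group, each call below was also computed without it, an addition made after seeing the data where it concerns lists. Without it Myh6 and Myh7 are at 0 in every Exercise liver left, so they follow the group fully. Leaving it out is therefore no check on the part of muscle RNA, which in the livers left cannot be told apart from that of exercise. With all livers kept, Exercise replicate 1 is the only Exercise liver with Myh6 and Myh7 RNA. A comparison through it rests on 1 liver and was not tested.

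Of the 10 genes, 5 changed after exercise, 4 lower and 1 higher, where 42.4% of all genes tested changed (21.3% lower and 21.1% higher). The share of called genes is therefore near that of the whole transcriptome, and the sizes of the changes are what the following values describe. Inhba, Inhbe and Fgf21 fell at least 2-fold and Fst rose at least 2-fold, 4 of 10 where 3.94% of all genes moved that far (1.59% lower and 2.35% higher). Fst stood near that limit and was under it with library size scaling (log2 fold change 0.96), with both FPKM pseudocounts (0.85 and 0.52) and without Sedentary replicate 1, Sedentary replicate 3 or Exercise replicate 2 (0.94, 0.96 and 0.90), and Fgf21 was under it on log2(FPKM + 1), at -0.72. Inhba, Inhbe, Fgf21 and Tsku were lower in every Exercise liver than in every Sedentary liver, a lack of overlap in that direction that 10.6% of all genes showed. The median log2 fold change was 0.021 over the 10 genes and -0.0028 over all genes tested. The counts of genes called, of genes at least 2-fold and of genes without overlap all include Fgf21. It passed the low-count filter through the Sedentary livers, with 6 of them and 0 Exercise livers at 10 counts or more. The members were also chosen with earlier results of these data known. These counts beside the shares of all genes are therefore a description only.

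**Figure D1:**
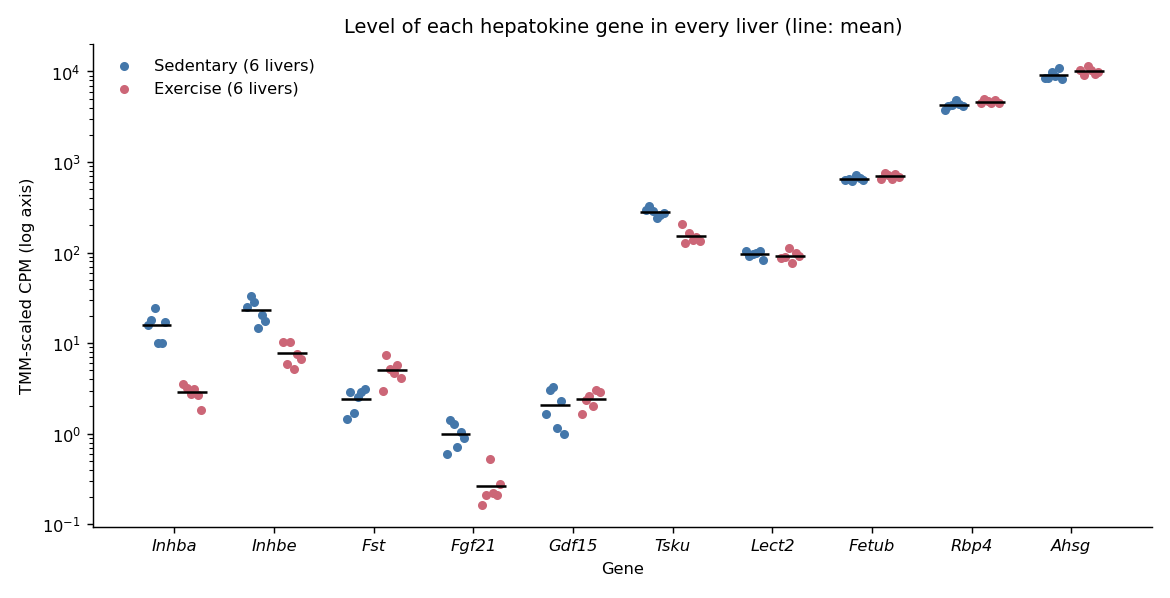
The vertical log axis gives the TMM-scaled CPM of each of the 10 genes in each of 6 Sedentary (blue) and 6 Exercise (red) livers, with a black line at each group mean. The Exercise points of Inhba, Inhbe, Fgf21 and Tsku lie below all Sedentary points, those of Fst lie mostly above, and the other 5 genes overlap.

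For the genes that fell together, the sequence before the start was read from RefSeq on GRCm38.p6, the build of the mm10 files. Of the 10 members 9 had an entry, and Fst had none. Genes lie at chr13:16004256-16031609 (Inhba, plus strand), chr10:127349402-127351848 (Inhbe, minus), chr13:114452262-114458989 (Fst, minus), chr7:45613890-45615490 (Fgf21, minus), chr8:70629393-70632470 (Gdf15, minus), chr7:98350668-98361390 (Tsku, minus), chr13:56529734-56548559 (Lect2, minus), chr16:22892015-22899451 (Ahsg, plus), chr16:22918382-22939768 (Fetub, plus) and chr19:38116620-38125321 (Rbp4, minus), all protein-coding. Ahsg and Fetub are neighbours 18.9 kb apart. Antisense genes or an opposite-strand pseudogene overlap Inhba, Inhbe, Fst and Ahsg in the GENCODE annotation, none of them is in the table, and it is not given in the sources used here whether reads were counted by strand, so their reads cannot be told apart.

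Each window holds the 250 bases before the transcript start that the promoter table uses, read 5′ to 3′ on the gene's strand, and matches to 10 motifs are in capitals. For Fgf21 and Inhbe this start is the first base of the gene span given above. For Inhba it is base 16011851, which lies 7.6 kb downstream of the first base of the RefSeq span, and for Tsku it is base 98361328, 62 bases downstream of it, so both windows lie wholly or partly inside the spans. The whole window is therefore shown for Fgf21 (chr7:45615491-45615740), and 30 bases around a match for Inhba (chr13:16011773-16011802) and for Inhbe (chr10:127352011-127352040), whose window a longer annotated transcript covers.
Fgf21: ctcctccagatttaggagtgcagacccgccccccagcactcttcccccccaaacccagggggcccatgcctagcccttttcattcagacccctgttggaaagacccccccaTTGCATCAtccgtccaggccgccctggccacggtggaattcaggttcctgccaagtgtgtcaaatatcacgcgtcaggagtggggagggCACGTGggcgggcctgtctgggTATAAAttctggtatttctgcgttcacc
Inhba: cacatctcttcTTTTGCAAttacagtaaaa
Inhbe: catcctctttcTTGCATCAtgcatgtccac

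Motifs were sought on both strands in windows of this length. The TATA box was taken as the letters TATAAA (found in 12.4% of 32851 promoter windows), and the CCAAT box by the letters of its name (33.8%). The C/EBP-ATF element was written TGATGNAA (3.45%), whereas the C/EBP site alone was written TTGCNNAA (9.56%). The cyclic AMP response element was sought in its full form TGACGTCA (1.55%), while for FOXO factors the search used TGTTTAC (3.17%). The E-box was given by CACGTG (6.02%), and the glucocorticoid response element, the PPAR response element and the sterol regulatory element each occurred in at most 0.192% of windows. Fgf21 held a TATA box ending 23 bases before the start, an E-box and a C/EBP-ATF element read as TTGCATCA on its strand. Inhbe held the same 8 letters TTGCATCA, and a CCAAT box outside the stretch shown. The C/EBP-ATF letters also occurred in a window of Rbp4, which did not pass the test. Inhba held the TATA letters 86 to 91 bases before base 16011851 and a C/EBP match, the one shown. Members that did not pass the test held these letters too. The C/EBP letters occurred in windows of Ahsg and Rbp4, and the TATA letters in windows of Fetub and Rbp4. The E-box letters occurred in a window of Gdf15, and the CCAAT letters in windows of Gdf15, Fetub and Rbp4. The Tsku window (chr7:98361329-98361578) held none of the 10, which says only that these letters are not in this window.

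Inhba encodes the beta A subunit, which forms activin A. In Sedentary livers Inhba ran from 10.06 CPM over a median of 16.54 to 24.16 CPM, and in Exercise livers from 1.82 over 2.96 to 3.56 CPM. The lowest Sedentary liver was thus well above the highest Exercise liver, which was Exercise replicate 1. The mean fell 5.55-fold, from 15.94 ± 5.36 to 2.87 ± 0.604 CPM (SD, n = 6 per group, two-sided exact permutation test p = 0.00216, the lowest value possible with 6 against 6). The log2 fold change was -2.47 (standard error 0.243, edgeR's adjusted p = 7.34e-06), and 27 of the 12344 genes tested, Inhba included, had a fold change of at least that size in either direction. Without Exercise replicate 1 it was -2.54.

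Inhbe encodes the beta E subunit, a nearly liver-restricted chain that forms activin E. Its level ran from 14.82 over a median of 22.85 to 33.22 CPM in Sedentary livers and from 5.24 over 7.18 to 10.40 CPM in Exercise livers. Exercise replicate 1 was the highest Exercise liver, close to Exercise replicate 3 at 10.37 CPM. The groups did not overlap, and the mean fell 3.04-fold, from 23.37 ± 6.98 to 7.70 ± 2.23 CPM (SD, n = 6 per group, two-sided exact permutation test p = 0.00216). The log2 fold change was -1.60 (standard error 0.238, edgeR's adjusted p = 0.000254), and -1.71 without Exercise replicate 1. Its start and that of Fgf21 carry the shared TTGCATCA letters printed above.

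Fst encodes follistatin, the secreted protein that binds activins. It ran from 1.45 over a median of 2.72 to 3.13 CPM in Sedentary livers and from 2.95 over 4.95 to 7.42 CPM in Exercise livers. The groups overlapped through Exercise replicate 1, the lowest Exercise liver, while the other 5 Exercise livers were above all Sedentary livers. The mean rose 2.07-fold, from 2.43 ± 0.696 to 5.03 ± 1.53 CPM (SD, n = 6 per group, two-sided exact permutation test p = 0.00433). The log2 fold change was 1.05 (standard error 0.221, edgeR's adjusted p = 0.00126), and 1.17 without that liver.

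To compare members within a liver, 8 log2 ratios of their CPM + 0.5 were tested with a two-sided exact permutation test and adjusted over the 8. The log2 ratio of Fst to Inhba rose from -2.46 ± 0.719 to 0.69 ± 0.495 (SD, n = 6 per group), a difference of 3.15 (standard error 0.357, adjusted exact permutation p = 0.00577). That of Fst to Inhbe rose by 2.44 (standard error 0.39, adjusted exact permutation p = 0.00577), and neither ratio overlapped between the groups. In FPKM, which is scaled for transcript length and depth, Fst stood at 0.193 to 0.815 times the level of Inhba in Sedentary livers and at 2.12 to 6.15 times in Exercise livers. In FPKM the order of Fst and Inhba was therefore inverted between the groups in all 12 livers. In CPM, which is not scaled for length, Exercise replicate 1 still held less Fst than Inhba (2.95 and 3.56 CPM). Against Inhbe, the FPKM of Fst stood at 0.048 to 0.142 times in Sedentary and 0.233 to 1.04 times in Exercise livers. Inhba fell more than Inhbe, with a difference in their log2 ratio of 0.71 (standard error 0.236, adjusted exact permutation p = 0.0433), a call that was lost without Exercise replicate 1 (0.68, adjusted exact permutation p = 0.0779) and without each of 7 other livers.

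**Figure D2:**
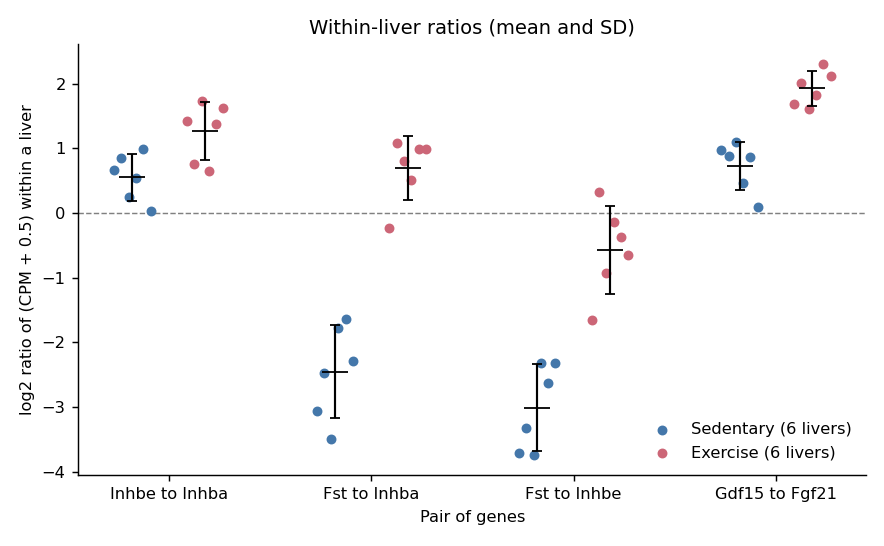
The vertical axis gives the log2 ratio of 2 genes' CPM + 0.5 within a liver for 4 pairs, with 6 Sedentary (blue) and 6 Exercise (red) livers as points and the mean with SD in black. The ratios of Fst to Inhba, Fst to Inhbe and Gdf15 to Fgf21 do not overlap between groups, while those of Inhbe to Inhba do.

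The other genes of activin and TGF-beta signaling gave mixed directions. Of 22 such genes tested beyond Inhba, Inhbe and Fst, 3 rose and 3 fell, 27.3% against 42.4% of all genes. Inhbb, the beta B subunit of activin B, rose from 0.514 ± 0.206 to 2.36 ± 0.277 CPM (SD, n = 6 per group), a log2 fold change of 2.18 (standard error 0.217, edgeR's adjusted p = 6.2e-07). Its groups did not overlap, which in that direction held for 11.7% of all genes. Inhbb was low in Sedentary livers, at 0.25 to 0.807 CPM, and passed the low-count filter through the Exercise livers. Inhbc, the beta C subunit, whose gene lies 1.9 kb from Inhbe, fell from 76.29 ± 9.99 to 56.34 ± 5.45 CPM (log2 fold change -0.44, edgeR's adjusted p = 0.000477) with overlap. The 4 beta subunit genes measured thus moved by -2.47, -1.60, -0.44 and 2.18 on the log2 scale in the order Inhba, Inhbe, Inhbc, Inhbb. Among receptors, Acvr1b, the type I activin receptor, fell by 0.50 and Tgfbr2, the type II TGF-beta receptor, by 0.49 on the log2 scale, and Bmpr2, a type II BMP receptor, rose by 0.39. Smad4, the shared partner of the receptor-regulated SMADs, rose by 0.26, whereas the type II activin receptors Acvr2a and Acvr2b were at log2 fold changes of 0.074 and 0.20 and did not pass. These counts were the same under library size, RLE and upper quartile scaling. Without Exercise replicate 1, 23 genes of this list were tested, of which 4 rose and 3 fell (30.4%).

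**Figure D3:**
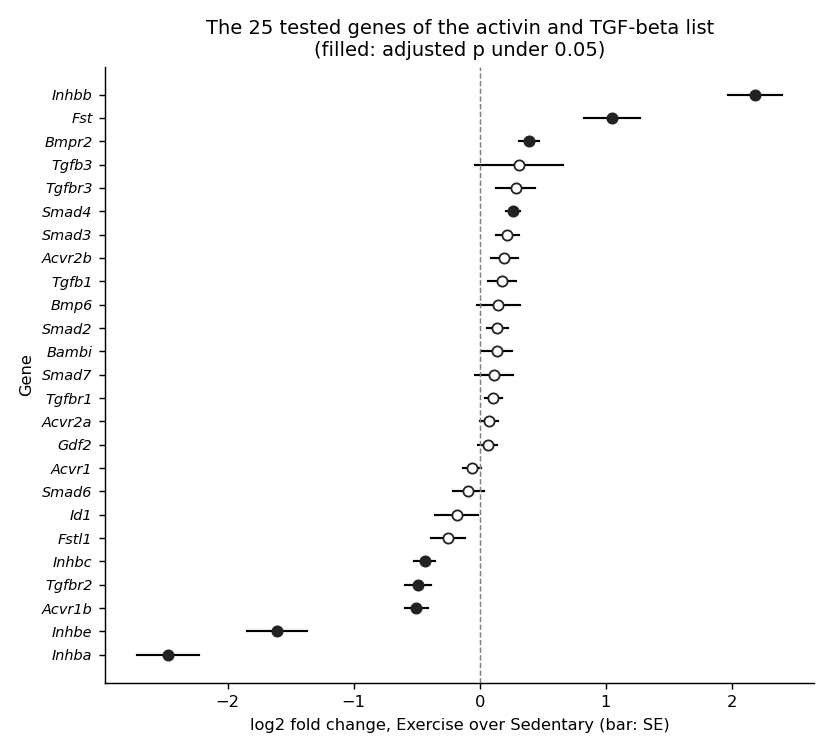
Each row is 1 of the 25 tested genes of the activin and TGF-beta list, with its log2 fold change of Exercise over Sedentary on the horizontal axis and its standard error as a bar, filled where edgeR's adjusted p was under 0.05. Inhba and Inhbe lie farthest to the left and Inhbb and Fst farthest to the right, with the receptors and SMADs between -0.50 and 0.39.

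Fgf21 encodes a hormone of fasting and nutrient stress that acts on fat and brain. Counts were low, with 12 to 30 estimated counts per Sedentary liver and 3 to 9 per Exercise liver, 118 against 29 in all. On the CPM scale Fgf21 ran from 0.600 over a median of 0.964 to 1.43 in Sedentary livers and from 0.164 over 0.217 to 0.522 in Exercise livers. No Exercise liver reached the lowest Sedentary liver, though Exercise replicate 3 was close to it, and Exercise replicate 1 was the lowest of all. The mean fell 3.68-fold, from 0.990 ± 0.322 to 0.267 ± 0.130 CPM (SD, n = 6 per group, two-sided exact permutation test p = 0.00216). The log2 fold change was -1.88 (standard error 0.313, edgeR's adjusted p = 0.000118), and -1.77 without Exercise replicate 1.

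Gdf15 encodes a stress-induced hormone of the TGF-beta superfamily and was the member with the widest spread among Sedentary livers, at a coefficient of variation of 46.8%. It ran from 0.993 over a median of 1.97 to 3.31 CPM in Sedentary livers and from 1.64 over 2.48 to 3.04 CPM in Exercise livers, so the groups overlapped almost fully. The means were 2.08 ± 0.972 and 2.43 ± 0.525 CPM (SD, n = 6 per group, two-sided exact permutation test p = 0.351). The log2 fold change was 0.22 with a 95% interval from -0.34 to 0.79 (edgeR's adjusted p = 0.539), which leaves room for a change of up to that size. The log2 ratio of Gdf15 to Fgf21 rose by 1.2 (standard error 0.189, adjusted exact permutation p = 0.00577). Fgf21 lay below the added 0.5 CPM in most Exercise livers, so this size depends on the pseudocount, and it was 1.89 with 0.1 CPM and 1.90 on FPKM + 0.1. Gdf15 itself did not pass, and Fgf21 passed the low-count filter through the Sedentary livers. The ratio therefore mainly restates the fall of Fgf21 and is no separate result.

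The receptors and feedback genes of FGF21 were read beside its fall. Of 14 tested, 4 rose and 3 fell, a share of 50% against 42.4% of all genes. The co-receptor gene Klb fell from 31.39 ± 2.47 to 22.06 ± 3.35 CPM (SD, n = 6 per group, log2 fold change -0.51, edgeR's adjusted p = 0.000132), and the receptors Fgfr2 and Fgfr3 fell by 0.88 and 0.70 on the log2 scale, all without overlap. Fgfr1 and Fgfr4, the latter the main hepatocyte receptor, did not pass (log2 fold changes -0.026 and -0.21). Egr1, an immediate early gene downstream of growth factor signaling, rose from 5.85 ± 3.06 to 21.93 ± 7.31 CPM (SD, n = 6 per group, log2 fold change 1.90, edgeR's adjusted p = 0.00135). The adaptor Frs2 and the feedback inhibitor Spred2 rose by 0.30 and 0.37 on the log2 scale. Without Exercise replicate 1, 3 genes of this list rose and 3 fell.

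Among 33 genes for factors known to control Fgf21 or Gdf15, 17 rose and 9 fell (78.8% called against 42.4% of all genes). Foxo3 and Cebpb, factors of the fasting response, rose by 1.11 and 1.34 on the log2 scale, and Nfil3, a repressor linked to the circadian clock, rose by 0.92. Nr1h4, the bile acid receptor FXR, fell by 0.73, Mlx, the partner of ChREBP, by 0.36, and Xbp1, a factor of the unfolded protein response, by 0.41 on the log2 scale. Library size scaling turned these counts to 15 higher and 12 lower, and leaving out Exercise replicate 1 to 16 higher and 9 lower. Atf4, a factor of the integrated stress response that induces Fgf21 and Gdf15, fell by 0.28 on the log2 scale, a gene named for this role after its value was seen. In the same list Ppara, Ppargc1a, Ddit3 and Eif2ak3 rose by 0.42, 1.88, 0.29 and 0.31 on the log2 scale, also named after their values were seen. Of 20 ATF4 target genes tested 7 rose and 4 fell (55% against 42.4%, and 5 and 5 with library size scaling), and Ddit4, a stress-induced inhibitor of mTOR, rose by 3.74, Sesn2, a sestrin, by 1.56, and Trib3, a pseudokinase, by 1.14 on the log2 scale. Psat1, of serine synthesis, and the aminoacyl-tRNA synthetase genes Aars and Gars fell by 1.18, 0.34 and 0.28 on the log2 scale. Of 18 PPARalpha targets tested, 1 rose and 7 fell (44.4% against 42.4%): Angptl4, an inhibitor of lipoprotein lipase, rose by 1.64, while Plin2, the lipid droplet coat protein, Ehhadh, of peroxisomal beta-oxidation, and Acaa1b, a peroxisomal thiolase, fell by 1.21, 0.51 and 0.57 on the log2 scale. Leaving out Exercise replicate 1 gave 1 target higher and 6 lower.

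Tsku encodes tsukushi, a small leucine-rich protein that liver secretes. It ran from 241.9 over a median of 280.0 to 326.4 CPM in Sedentary livers and from 128.4 over 142.9 to 209.5 CPM in Exercise livers, without overlap. The highest Exercise liver was Exercise replicate 1. The mean fell 1.82-fold, from 280.6 ± 29.9 to 154.4 ± 30.1 CPM (SD, n = 6 per group, two-sided exact permutation test p = 0.00216). The log2 fold change was -0.86 (standard error 0.109, edgeR's adjusted p = 1.75e-05), and -0.97 without Exercise replicate 1.

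**Figure D4:**
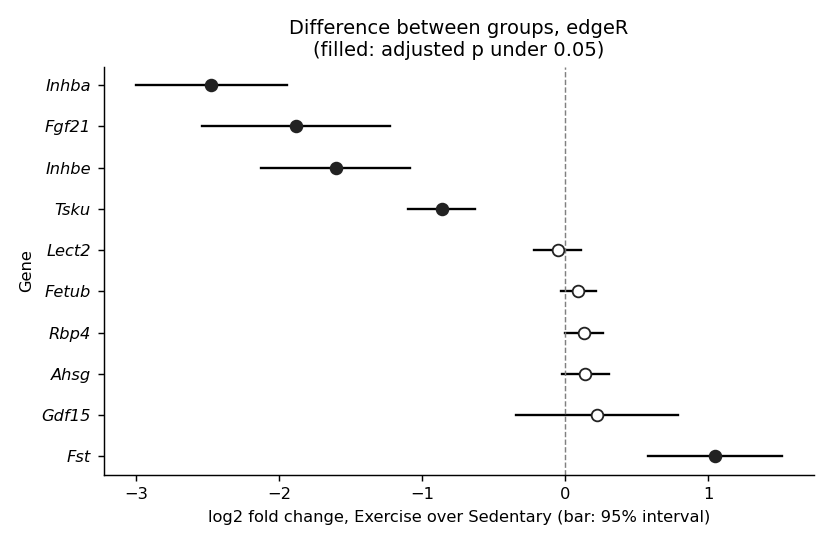
Each row is 1 of the 10 genes, with its log2 fold change of Exercise over Sedentary on the horizontal axis, its 95% interval as a bar and a filled point where edgeR's adjusted p was under 0.05. Inhba, Fgf21, Inhbe and Tsku lie left of 0, Fst lies right of it, and the intervals of the other 5 genes cross 0.

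Once the group means were taken out, the members were compared with each other over the 12 livers. Of 45 pairs, Inhbe and Tsku went together most closely (Pearson r = 0.851, adjusted permutation p = 0.0081, Spearman rho = 0.888, adjusted permutation p = 0.0166, n = 12). The relation was 0.817 without the 2 livers farthest from the median, 0.927 among Sedentary and 0.869 among Exercise livers alone, and 0.905 without Exercise replicate 1. Livers with much Inhbe for their group thus also tended to hold much Tsku. Fetub and Rbp4 also passed by Pearson r (r = 0.809, adjusted permutation p = 0.0459, n = 12), but not by Spearman rho (rho = 0.825, adjusted permutation p = 0.106), and r was 0.615 without the 2 farthest livers. Fgf21 and Gdf15 reached r = 0.677 (adjusted permutation p = 0.459, n = 12), which did not pass.

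**Figure D5:**
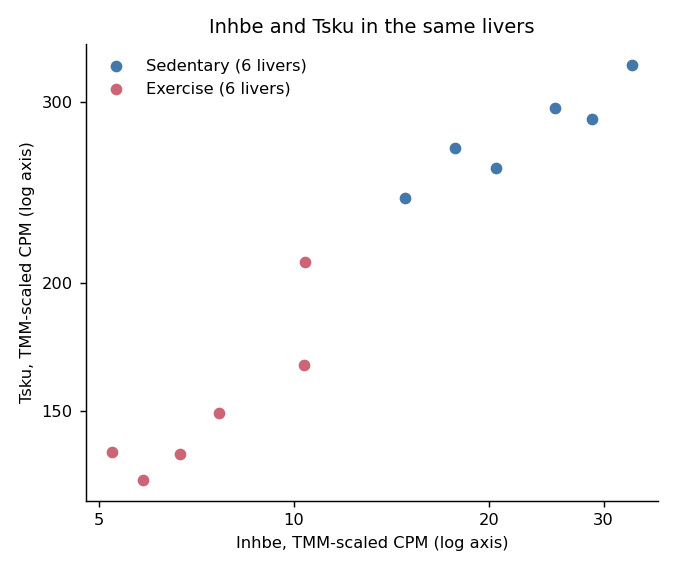
The TMM-scaled CPM of Inhbe is on the horizontal and that of Tsku on the vertical axis, both logarithmic, for 6 Sedentary (blue) and 6 Exercise (red) livers. The groups separate on both axes, and within each group livers with more Inhbe tend to have more Tsku, with some exceptions.

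The genes most like each member by the same measure, among 11537 genes averaging 1 CPM or more, are a description of these 12 livers. For Inhba they included Spata5 (r = 0.911) and Abhd8 (r = 0.897). For Inhbe they were Det1, Gnat1 and Cops8 (r = 0.886, 0.885 and 0.885). For Tsku they were Dtx3l, Erlin2 and Srxn1 (r = 0.913, 0.906 and 0.887). Fgf21 was closest to Ppp1ca, Sgk2 and Gpatch2l (r = 0.866, 0.86 and 0.854), Fst to genes that included Hnrnpl and Phka2 (r = 0.919 and 0.901), and Gdf15 to Slc25a14, Phospho1 and Cdc42ep1 (r = 0.883, 0.875 and 0.867). Ahsg was closest to the vitamin E binding plasma protein gene Afm (r = 0.948), Atf1 (r = 0.938) and the transferrin gene Trf (r = 0.908). Fetub was closest to Zfp825, Hace1 and Apoe (r = 0.924, 0.896 and 0.891), Rbp4 to Mcm9, Phf12 and Mrps18c (r = 0.909, 0.897 and 0.892), and Lect2 to genes that included Ldha and Npr2 (r = 0.908 and 0.89).

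Ahsg, Fetub, Rbp4 and Lect2, whose products circulate in plasma, did not pass the test. Ahsg encodes fetuin-A, which binds mineral and inhibits the insulin receptor. It ran from 8308 over a median of 8717 to 10820 CPM in Sedentary livers and from 9197 over 10090 to 11520 CPM in Exercise livers (log2 fold change 0.14, 95% interval -0.024 to 0.31, edgeR's adjusted p = 0.16). Fetub encodes fetuin-B, which inhibits zona pellucida hardening. Its medians were 645.6 and 701.2 CPM, with ranges of 620.6 to 723.5 and 653.6 to 752.7 CPM (log2 fold change 0.094, 95% interval -0.031 to 0.22, edgeR's adjusted p = 0.221). Rbp4 carries retinol in plasma, and its medians were 4221 and 4653 CPM, with ranges of 3768 to 4816 and 4467 to 4914 CPM. Its log2 fold change was 0.13 (95% interval -0.0020 to 0.27, edgeR's adjusted p = 0.106), though its two-sided exact permutation test gave p = 0.0281 for 6 against 6 livers. Lect2, the leukocyte cell-derived chemotaxin that binds MET and TIE1, ran from 83.64 over a median of 97.65 to 103.6 CPM in Sedentary and from 77.53 over 90.36 to 111.2 CPM in Exercise livers (log2 fold change -0.051, 95% interval -0.21 to 0.11, edgeR's adjusted p = 0.632). No interval of these 4 genes reached beyond 0.31 in either direction on the log2 scale.

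The ratios among these 4 did not pass. The log2 ratios of Fetub, Rbp4 and Lect2 to Ahsg differed between groups by -0.052, -0.010 and -0.20 (adjusted exact permutation p = 0.75, 0.929 and 0.0831). In FPKM, the order of the mean levels was the same in both groups down to Inhbe, with Ahsg, Rbp4, Fetub, Lect2, Tsku and Inhbe at 6552, 4968, 465.5, 120.0, 113.6 and 11.22 in Sedentary livers and 6772, 5100, 464.4, 108.3, 58.53 and 3.43 in Exercise livers. Below them the order was Inhba (2.29), Gdf15 (1.60), Fgf21 (1.14) and Fst (0.947) in Sedentary livers and Fst (1.81), Gdf15 (1.73), Inhba (0.397) and Fgf21 (0.285) in Exercise livers. Over all 12 livers Ahsg and Rbp4 ranked 14 and 18 among all genes in the table. The ranges of neighbours overlapped in Sedentary livers for Lect2 and Tsku, Inhba and Gdf15, Gdf15 and Fgf21, and Fgf21 and Fst, and in Exercise livers for Inhbe and Fst, Fst and Gdf15, and Inhba and Fgf21, and the other neighbours did not overlap.

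Around these carriers, 25 genes of retinol transport and storage other than Rbp4 were tested, of which 2 rose and 10 fell (48% against 42.4% of all genes), or 1 and 14 with library size scaling. Leaving out Exercise replicate 1 gave 2 higher and 9 lower. Rxrg, a retinoid X receptor, fell by 1.81, Bco2, a carotenoid-cleaving oxygenase, by 0.64, and Adh4, an alcohol dehydrogenase that oxidises retinol, by 0.81 on the log2 scale. Rxrb and Rara, nuclear receptors for retinoids, rose by 0.39 and 0.21, the latter only under TMM and RLE scaling. Lrat, which esterifies retinol in stellate cells, fell by 0.59 on the log2 scale. Of 8 stellate cell markers tested 1 rose and 2 fell (37.5% against 42.4% of all genes), or 2 and 2 without Exercise replicate 1 and 0 and 2 with library size scaling. These markers summed to 156.1 to 209.8 CPM in Sedentary and 142.7 to 210.5 CPM in Exercise livers. Their part in this result was not tested. In the fetuin and cystatin list 4 of 11 genes other than Ahsg and Fetub rose (36.4% against 42.4%), Hrg, Itih3, Insr and Ambp, the histidine-rich glycoprotein, an inter-alpha-inhibitor chain, the insulin receptor and bikunin, by 0.29, 0.23, 0.18 and 0.15 on the log2 scale, and with library size scaling none rose and 1 fell. Among partners of LECT2 and TSKU other than Tsku, 4 of 10 rose and 1 fell (50% against 42.4%), or 2 and 1 with library size scaling. It was 5 and 1 without Exercise replicate 1. Met, the receptor of hepatocyte growth factor that LECT2 binds, fell by 0.35, while Tie1, another LECT2 receptor, rose by 0.38, Lrp6, a Wnt co-receptor, by 0.35, and Lcat, the cholesterol acyltransferase, by 0.20 on the log2 scale, a call lost with library size scaling (0.10, edgeR's adjusted p = 0.168). Of 8 endothelial markers tested 3 rose and 1 fell (50% against 42.4% of all genes), or 5 and 0 without Exercise replicate 1 and 2 and 1 with library size scaling. Pecam1, Lyve1 and Oit3 rose by 0.49, 1.18 and 0.55 and Kdr fell by 0.19 on the log2 scale. The call of Oit3 was lost with library size scaling. The list summed to 153.7 to 210.3 CPM in Sedentary and 172.3 to 259.6 CPM in Exercise livers. The part of endothelial cells in the level of Tie1 was not tested.

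Of 38 other liver hormones tested, 12 rose and 5 fell (44.7% against 42.4% of all genes). Angptl4, Nrg4, a ligand of ErbB receptors, and Manf, an endoplasmic reticulum stress protein, rose by 1.64, 1.32 and 0.75, and Angptl8, Leap2, the ghrelin receptor antagonist, and Igfals, the IGF carrier subunit, fell by 2.65, 1.01 and 0.76 on the log2 scale. Library size scaling made this 8 higher and 8 lower. Of 29 abundant plasma proteins, 9 rose and none fell (31% against 42.4%), Hp, haptoglobin, by 0.60, Hpx, hemopexin, by 0.23 and Serpina1b, an alpha-1-antitrypsin, by 0.23 on the log2 scale, and 1 rose with library size scaling. Leaving out Exercise replicate 1 gave 6 higher and none lower.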

How the data were processed

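Liver RNA of 12 mice was sequenced. The authors deposited RSEM estimated counts per gene, not scaled between libraries, and FPKM values, which the authors scaled for transcript length and depth. The submitters' processing notes name Bowtie2 2.3.4.3, RSEM 1.3.1 and mm10, and the annotation is not given in the sources used here. Of the counts 31.3% were not whole, so they were rounded. Groups came from the labels, which number 6 samples in each and do not state separate mice. The paper gives 6 males per group for the experiment whose livers were sequenced, so each sample was taken as 1 mouse. The p-values measure the spread between these samples. No 2 of the 12 libraries were identical. edgeR 4.0.16 (R 4.3.3) was run with TMM factors, the filterByExpr filter (minimum count 10), a robust quasi-likelihood fit with group as its only term, and Benjamini-Hochberg adjustment over 12344 genes, after being tested on simulated data. Exact permutation tests used all 924 relabellings on log2(CPM + 0.5), and correlations 100000 resamples within groups. The 10 members and all gene lists were chosen with earlier results of these data known. Named list genes are the 3 smallest p in each direction, and the nearest genes the 3 highest r, of which some are not reported here. Acvr2a, Acvr2b, Inhbc, Fgfr1, Fgfr4, Tgfbr2, Lrat, Ambp, Atf4, Ppara, Ppargc1a, Ddit3 and Eif2ak3 were added after their values were seen. Alternatives were other filters, scalings, DESeq2 1.42.0, limma 3.58.1 on counts and on FPKM, a replicate block, other pseudocounts and leaving out each liver. List counts under other scalings and without Exercise replicate 1 were added after seeing the data. Poisson counting error made up 88.1% of the variance between Exercise livers for Fgf21, 48.2% for Gdf15 and 42.9% for Inhba, 47.9% and 25.3% between Sedentary livers for Fgf21 and Fst, and at most 11.7% elsewhere among the members.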

Additional observations from a re-analysis of the deposited data

Results flagged for a closer look

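In 36 groups of 6 livers (CPM of the 10 genes and the 8 within-liver ratios, in each group), 1 sample lay far from the others, where chance gives about 1 in 20 groups, or 1.8. Exercise replicate 3 held 0.522 CPM of Fgf21 against 0.276 in the next liver, and this gap was 0.687 of the group's range, above Dixon's 95% limit for 6 samples. Its value rests on 9 estimated counts, and the fall of Fgf21 had an edgeR adjusted p of 5.38e-05 to 0.000488 with each liver left out in turn.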

How the results depend on the processing

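The calls for Inhba, Inhbe, Fgf21, Fst, Tsku (changed) and Gdf15 (not) kept their direction and side of the threshold under every alternative run, and 4 to 6 of the 10 genes were called. Their size moved most on log2(FPKM + 1), to -0.72 for Fgf21, -1.20 for Inhba and 0.52 for Fst, and 2 to 4 genes were called and at least 2-fold. Fgf21 had no value with at least 10 counts required in every library. Scaling by library size alone moved the median of all genes to -0.0985, and the log2 fold change of Fetub to -0.0011 (-0.0052 with either FPKM pseudocount). Rbp4 was called with DESeq2 (0.1335, adjusted p = 0.0492). With each liver left out in turn, Lect2 ran from -0.1049 to 0.0012, Ahsg from 0.1067 to 0.2005 (called without Sedentary replicate 5), Rbp4 from 0.0993 to 0.1709 (called without Sedentary replicate 4). The log2 ratio of Inhbe to Inhba differed by 0.6052 to 0.8313, and by 0.5429 on FPKM + 0.1 (adjusted exact permutation p = 0.0635). That of Tsku to Fgf21 ran from -0.0606 to 0.1691 and was 0.6993 with a pseudocount of 0.1 CPM (adjusted exact permutation p = 0.0416), Rbp4 to Ahsg from -0.0531 to 0.0335, and Lect2 to Ahsg from -0.2448 to -0.1401 (called without Exercise replicate 5). The cause of these moves was not tested.

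Same-numbered livers did not pair (correlations of their deviations from -0.099 to 0.16). A replicate block called 5 of the 10 genes. For the ratios it tests 6 pairs by sign flips, which limits how small a p can be, and the calls were lost: Inhbe to Inhba 0.7100 (adjusted exact p = 0.125), and Fst to Inhba 3.1496, Fst to Inhbe 2.4396 and Gdf15 to Fgf21 1.1962 (each adjusted exact p = 0.0833).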
